A study of Mus musculus with 40 samples.

Results

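The cerebellum of SCA6 mice was compared between 3 and 6 months of age. The 5 libraries of 6-month animals were set against the 5 libraries of 3-month animals, out of 40 RNA-seq libraries in the series, and every gene with a CPM, the count scaled to library size, of at least 1 in all libraries of either age was tested. This kept 13162 of the 21967 genes in the count table. SCA6 mice carry an expanded CAG repeat, which encodes polyglutamine, knocked into 1 endogenous Cacna1a allele and serve as a model of spinocerebellar ataxia type 6. Every SCA6 animal was heterozygous, and the colony was re-established from frozen embryos. The wild-type (WT) groups of 3 and 6 months, also with 5 libraries each, were used only to show where the SCA6 change differed. Age was the only condition labelled as differing within a genotype, and no drug or other treatment was named. The labels also carried an ID number, which differed fully between the ages, as described below. Each library came from whole cerebellum, so it mixed the transcripts of all its cell types.

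Proteins that enter the endoplasmic reticulum (ER) are folded by resident chaperones, and a load of misfolded protein turns on the unfolded protein response (UPR), which raises transcription of those chaperones through the factors XBP1 and ATF6. A separate programme under HSF1 raises the chaperones of the cytosol. The circadian clock is a loop of transcription factors that oscillates in cerebellum as in other tissues, so the level of its genes depends on the hour of collection. Oligodendrocytes wrap axons in myelin, whose membrane is rich in cholesterol made within the brain. The Cacna1a protein is the pore of the P/Q-type calcium channel of Purkinje cells, the output neurons of the cerebellar cortex.

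Library totals ran from 56357193 to 73537900 counts at 3 months and from 48984690 to 64042765 at 6 months, and mitochondrial transcripts took 4.24% to 4.78% and 3.83% to 5.27% of them. Cacna1a itself, the targeted gene (chr8:84388440-84640246, mm10), stood at 384, 374, 348, 343 and 320 CPM at 3 months and at 456, 358, 405, 399 and 401 CPM at 6 months, and the difference did not pass the test (log2 fold change 0.18, SE 0.07, adjusted p = 0.072). Total Cacna1a counts cannot tell the knock-in allele from the endogenous one. The groups were not balanced for sex. Y-linked transcripts were present in 4 of the 5 libraries of 3 months, all but replicate 1, and at 6 months in replicate 1 alone. Every 3-month SCA6 label carried the ID number 34, while 6-month replicates 1 to 3 carried 7 and replicates 4 and 5 carried 8, so age and ID number cannot be told apart. What this number stands for was not given in the sources used here. The libraries labelled SCA6 3 months replicates 2 and 3 stood apart from their group at Comp and Mri1, which lie near Cacna1a. Abcc12, Il15, Zfp868 and Zfp963 were chosen for the same check, and their values in each library are not reported here. Comp was at 3.61 and 3.67 CPM there and between 7.80 and 14.1 CPM in the other 8 SCA6 libraries, against 2.83 to 3.86 CPM in WT of 3 months. Mri1 was at 27.4 and 24.3 CPM there and between 13.6 and 18.3 CPM in the other 8, against 22.9 to 26.01 CPM in WT of 3 months. The genotype label of these 2 libraries is therefore in doubt, and these data do not settle it. Counts and calls that rest on them are also given without them for the main lists and many of the named genes. The labels do not tie libraries to named animals, so p-values measure the spread between these samples.

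From 3 to 6 months, 1091 genes changed in SCA6 cerebellum, 8.29% of those tested, with an adjusted p of 0.05 or less and an absolute log2 fold change of at least 0.3. Of these, 597 were higher at 6 months (4.54% of all tested) and 494 were lower (3.75%). The CPM filter had admitted 63 of the 1091 through 1 age only. Among the 12934 genes with a CPM of at least 1 in every library of both ages, 563 were called higher (4.35%) and 465 lower (3.6%). Most changes were small. The median log2 fold change was 0.44 among higher genes and −0.41 among lower ones, and it was −0.01 over all 13162. Changes of at least 1 on the log2 scale were reached by 19 higher and 4 lower genes. In 750 of the 1091 called genes the ranges of the ages did not overlap, and this was so in 1708 of all genes tested (12.98%). With 3-month replicates 2 and 3 left out, 519 genes were called, 494 of them among the 1091. With Y-linked status as a term in the model, 893 were called, 529 of them among the 1091. This term was the mean log2 CPM of the 4 Y-linked genes in each library, not presence or absence. Among libraries without Y-linked transcripts only, a comparison of 1 library with 4, the count was 7.

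**Figure D1:**
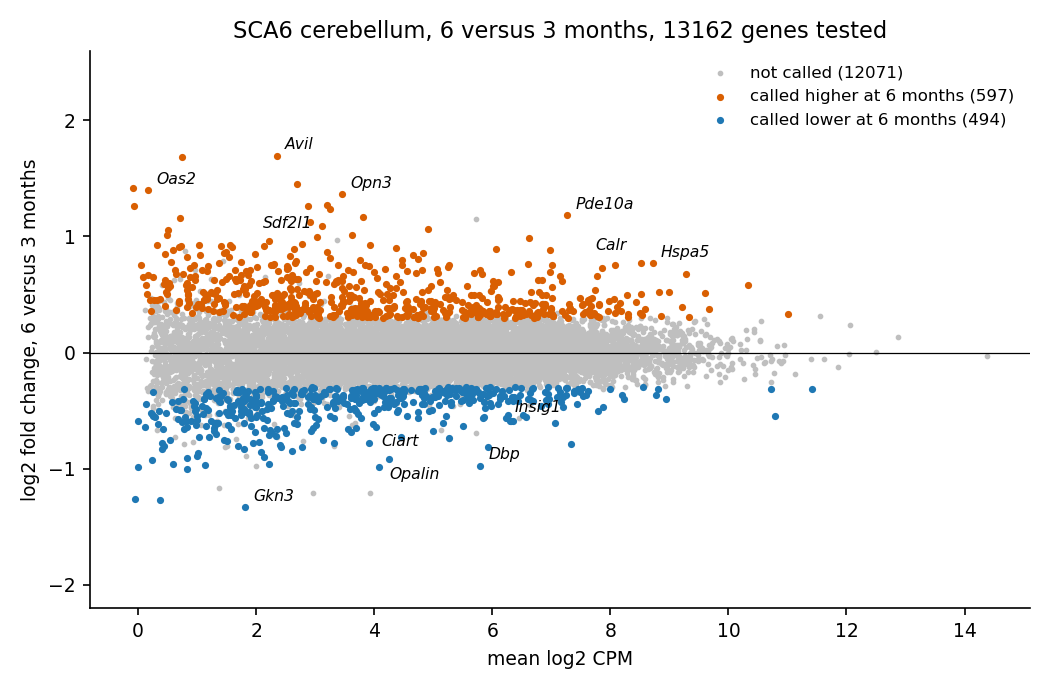
Log2 fold change of SCA6 cerebellum, 6 over 3 months, against mean log2 CPM for the 13162 genes tested; each point is a gene, with 597 higher and 494 lower called genes coloured and named genes labelled. Higher and lower calls lie on both sides of a cloud centred near 0, and few pass a log2 fold change of 1.

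The genes that fold proteins in the ER rose together. Of 10 ER chaperones and foldases, 9 were higher at 6 months and none was lower, with a median log2 fold change of 0.64 against −0.01 over all genes tested and a background of 4.54% called higher. The study itself chose this list on these libraries, so its direction is not independent evidence. The promoters of 5 of these genes are shown, because they hold the letters of the ER stress response element. This element, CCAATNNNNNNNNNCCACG, where N is any base, is the site through which ATF6 and XBP1 are known to act. It was searched on both strands from 250 bases before to 50 bases after each RefSeq start (GRCm38.p6), in 300-base windows. The E-box named further below, CACGTG, can share letters with its end. The ER stress response element occurred in 39 of 32851 windows (0.119%), and in 18 of the 9906 tested genes that had a window (0.182%). Among the 10 ER genes, 9 had a window and 5 of these held it. The windows lie at chr2:34771840-34772139 on the plus strand for Hspa5, at chr10:86705395-86705694 on the minus strand for Hsp90b1, at chr8:84846882-84847181 on the minus strand for Calr, at chr12:17266339-17266638 on the plus strand for Pdia6 and at chr14:118937682-118937981 on the plus strand for Dnajc3. Each is written 5′ to 3′ along the gene, and capitals mark the element on either strand.
Hspa5: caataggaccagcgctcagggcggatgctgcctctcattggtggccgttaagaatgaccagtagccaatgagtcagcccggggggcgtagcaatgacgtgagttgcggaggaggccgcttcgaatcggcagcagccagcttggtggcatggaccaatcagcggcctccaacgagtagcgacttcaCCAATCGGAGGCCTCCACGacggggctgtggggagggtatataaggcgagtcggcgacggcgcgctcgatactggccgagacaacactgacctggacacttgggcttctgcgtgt
Hsp90b1: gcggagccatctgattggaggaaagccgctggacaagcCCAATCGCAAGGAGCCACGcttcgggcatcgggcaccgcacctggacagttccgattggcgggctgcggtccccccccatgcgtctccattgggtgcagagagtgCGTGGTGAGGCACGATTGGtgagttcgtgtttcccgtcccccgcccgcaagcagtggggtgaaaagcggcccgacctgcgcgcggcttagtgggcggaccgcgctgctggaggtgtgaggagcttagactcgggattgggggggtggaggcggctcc
Calr: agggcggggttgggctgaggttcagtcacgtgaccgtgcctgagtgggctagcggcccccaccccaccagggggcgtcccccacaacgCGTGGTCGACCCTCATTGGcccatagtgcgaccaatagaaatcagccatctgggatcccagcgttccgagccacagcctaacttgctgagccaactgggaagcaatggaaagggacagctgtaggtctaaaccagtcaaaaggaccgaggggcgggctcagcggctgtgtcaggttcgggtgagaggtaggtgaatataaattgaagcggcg
Pdia6: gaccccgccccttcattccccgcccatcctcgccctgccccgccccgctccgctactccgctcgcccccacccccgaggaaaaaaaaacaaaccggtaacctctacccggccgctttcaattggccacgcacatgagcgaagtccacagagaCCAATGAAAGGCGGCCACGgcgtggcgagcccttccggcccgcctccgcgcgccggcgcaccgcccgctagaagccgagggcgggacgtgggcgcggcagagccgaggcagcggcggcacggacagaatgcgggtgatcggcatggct
Dnajc3: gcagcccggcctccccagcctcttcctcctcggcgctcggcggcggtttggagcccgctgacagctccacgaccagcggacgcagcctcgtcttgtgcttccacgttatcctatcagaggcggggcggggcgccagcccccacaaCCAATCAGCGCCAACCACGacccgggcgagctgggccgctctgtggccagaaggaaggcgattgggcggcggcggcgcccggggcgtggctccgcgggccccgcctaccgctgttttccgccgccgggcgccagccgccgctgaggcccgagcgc

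The Hsp90b1 window held the element 2 times, on opposite strands, and the others held it 1 time. Over a wider list of UPR and ER folding genes, 10 of 52 genes with a window held it (19.2%). Of all genes called higher, 7 of 412 with a window held it (1.70%), and of those called lower 1 of 373 did (0.268%). The 7 were Hspa5, Hsp90b1, Calr, Pdia6, Dnajc3, Creld2 and Syvn1. All are members of the wider list, which includes the genes shown, so these shares are not separate evidence. These matches are letters in a window and say nothing of binding in these animals.

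Hspa5 encodes BiP, the ER Hsp70 that holds the UPR sensors inactive. Its transcripts were at 273, 250, 332, 341 and 368 CPM at 3 months and at 799, 492, 451, 492 and 453 CPM at 6 months. All 6-month libraries lay above all 3-month ones, with replicate 1 far above the rest. The log2 fold change was 0.77 (SE 0.15, adjusted p = 0.0051, edgeR). Hsp90b1 encodes GRP94, the HSP90 of the ER, and was at 470, 428, 495, 508 and 528 CPM against 1232, 742, 665, 667 and 592 CPM. The groups again did not overlap, and replicate 1 of 6 months was again the highest (log2 fold change 0.67, SE 0.16, adjusted p = 0.012). Calr, the calcium-binding lectin chaperone calreticulin, was at 288, 238, 267, 283 and 292 CPM at 3 months and at 613, 429, 387, 474 and 448 CPM at 6 months (log2 fold change 0.77, SE 0.10, adjusted p = 0.00049). Calr lies near Cacna1a on chromosome 8, and its lowest values at 3 months were those of replicates 2 and 3. Without these libraries its log2 fold change was 0.71 (adjusted p = 0.010, edgeR).

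Foldases that shuffle disulphide bonds followed the chaperones. Pdia3, which works with calreticulin on glycoproteins, was at 168, 152, 165, 187 and 191 CPM and then at 345, 257, 233, 269 and 262 CPM (log2 fold change 0.66, SE 0.09, adjusted p = 0.00081). Pdia6 went from 92.9, 86.9, 99.2, 104 and 104 CPM to 238, 148, 132, 146 and 129 CPM (log2 fold change 0.69, adjusted p = 0.0056). Pdia4 was higher by 0.58 on the log2 scale (adjusted p = 0.014). No 6-month value of Pdia3 or Pdia6 fell within the 3-month range. Hyou1, the nucleotide exchange factor of BiP, was at 90.0, 86.7, 92.0, 93.1 and 95.3 CPM and then at 210.0, 127, 116, 130 and 126 CPM (log2 fold change 0.62, adjusted p = 0.0066). The BiP co-chaperones Dnajb11 and Dnajc3 were higher by 0.61 and 0.37 on the log2 scale (adjusted p = 0.0036 and 0.0076). Dnajb9 was the member that did not pass, at 0.10 (adjusted p = 0.17). Its 3-month libraries lay between 41.6 and 48.1 CPM and its 6-month libraries between 45.5 and 50.4 CPM.

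Replicate 1 of 6 months had the highest level of each of the 9 called genes. It was also the single 6-month library with Y-linked transcripts. On a score that averages the 10 genes on the log2 scale against the 3-month SCA6 mean, it stood at 1.05, and the other 6-month libraries stood at 0.52, 0.38, 0.50 and 0.41, above the 3-month span of −0.17 to 0.11. Without it, 8 of the 10 genes were called and the median was 0.46, Dnajc3 losing its call at 0.29. Without 3-month replicates 2 and 3, 5 were called, at a median of 0.60. With the 6-month group limited to ID number 7 the median was 0.72 with 9 called, and with it limited to ID number 8 the median was 0.49 with 8 called. The median was 0.52 among libraries without Y-linked transcripts, where none of the 10 was called by edgeR in 1 library against 4, and 1.15 among those with them.

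**Figure D2:**
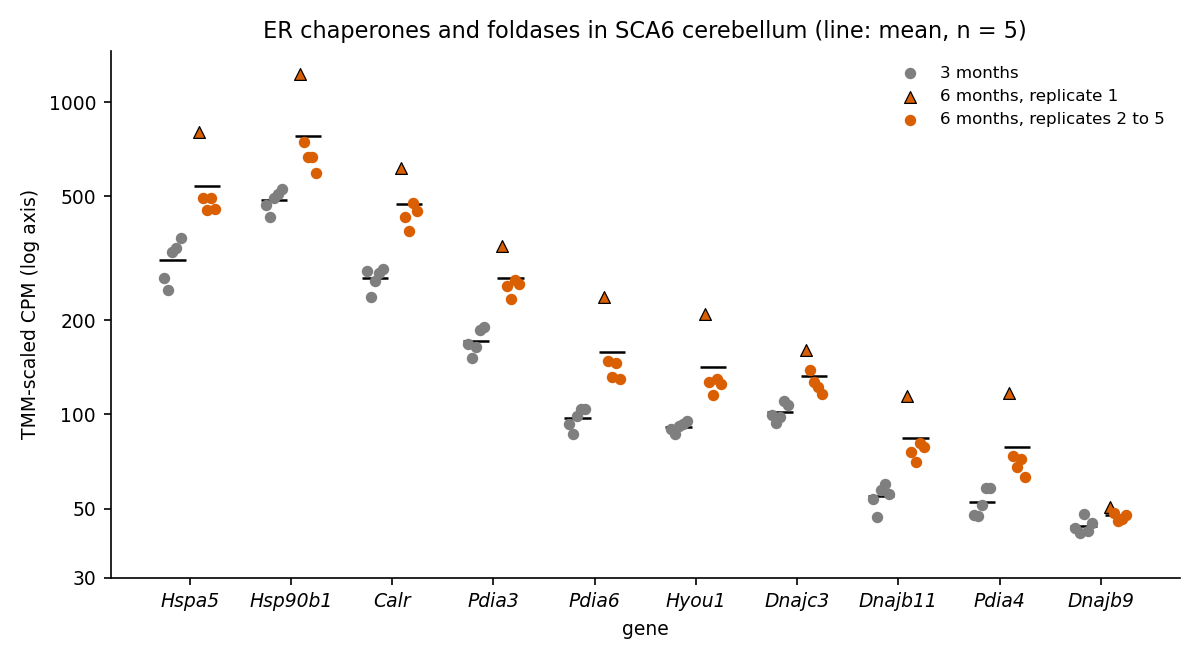
CPM of the 10 ER chaperones and foldases in each SCA6 library on a log axis, with 3-month and 6-month libraries side by side and 6-month replicate 1 drawn as a triangle. The triangle tops the column of each gene, and apart from Dnajb9 the 6-month libraries lie above the 3-month ones, as for Hspa5 with 250 to 368 CPM at 3 months and 451 to 799 CPM at 6 months.

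Among the wider UPR and ER folding genes, 16 of 60 were higher and none was lower, with a median log2 fold change of 0.11. This list includes called genes of the list above, namely Hspa5, Hsp90b1, Calr, Pdia3, Pdia4, Pdia6, Dnajb11 and Dnajc3. The count of 16 is therefore not separate from that result. Of all genes tested, 4.54% were called higher. Sdf2l1, a partner of BiP, rose most. It was at 4.74, 4.80, 5.33, 7.33 and 6.45 CPM at 3 months and at 19.9, 11.5, 12.1, 12.1 and 12.1 CPM at 6 months (log2 fold change 1.23, SE 0.16, adjusted p = 0.00055). Xbp1, the transcription factor of the IRE1 arm, was at 100, 84.0, 81.8, 104 and 113 CPM and then at 196, 154, 142, 169 and 156 CPM (log2 fold change 0.75, SE 0.10, adjusted p = 0.00042). Gene counts do not separate the spliced form of Xbp1 from the unspliced. The ER protein Creld2 (0.66 on the log2 scale), Syvn1, the ubiquitin ligase of ER-associated degradation (0.37), the prolyl isomerase Fkbp2 (0.32) and Txndc11 (0.33) were also higher. The sensors were not: Atf6 differed by 0.01 and Ern1, which encodes IRE1, by 0.11 (adjusted p = 0.865 and 0.185). Manf, a secreted ER stress factor, was at a log2 fold change of 0.58 with a wide error and missed the threshold (SE 0.20, adjusted p = 0.064). The count of 16 fell to 9 without 3-month replicates 2 and 3 and to 11 without 6-month replicate 1.

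The PERK arm acts through the factor ATF4. Of 31 genes of the ATF4 response, 1 was higher and 1 was lower, a share near the background of 4.54% and 3.75%, with a median of 0.03. Nupr1, a stress-induced chromatin protein, was higher by 0.33 on the log2 scale (adjusted p = 0.036), and Ddit4, an inhibitor of mTOR signalling, was lower at −0.34 (adjusted p = 0.0076). Both lost their calls without 3-month replicates 2 and 3. Ddit3, which encodes the ER stress factor CHOP, stood at 0.28 and missed the fold threshold.

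In the cytosol, 4 of 46 HSF1 targets and chaperones were higher and none was lower, against 4.54% of all genes tested called higher. The median was 0.12, and 0.05 without 6-month replicate 1. The co-chaperone Bag3 was at 16.1, 15.4, 15.8, 14.3 and 16.2 CPM at 3 months and at 24.04, 19.1, 20.3, 25.1 and 22.6 CPM at 6 months (log2 fold change 0.51, SE 0.07, adjusted p = 0.00098), with no overlap. Hspa8, the constitutive Hsp70, was higher by 0.33 (adjusted p = 0.015), and Cryab and Hspb1, which encode small heat shock proteins, by 0.41 and 0.85. The Hspb1 difference leaned on 1 library, with 2.76, 2.82, 3.07, 2.54 and 2.88 CPM at 3 months against 9.55, 3.86, 4.15, 3.82 and 4.16 CPM at 6 months, and its log2 fold change was 0.49 without 6-month replicate 1. Hspb1 lost its call when 3-month replicate 2 or 4 was left out, and Hspa8 lost its call without 6-month replicate 1 (0.23). Hsp90aa1, the inducible cytosolic HSP90, did not pass the test. It was at 1156, 1238, 1394, 1299 and 1425 CPM and then at 2230, 1506, 1374, 1196 and 1092 CPM, so 6-month replicate 1 was high while the others straddled the 3-month values (log2 fold change 0.17, adjusted p = 0.44). Dnaja1, an Hsp40, was also high in that library alone and stood at 0.19 (adjusted p = 0.33). Without 3-month replicates 2 and 3, Bag3 was the 1 gene of this list still called. Of 23 glucocorticoid-responsive genes, 1 was higher and 3 were lower, against 4.54% and 3.75% of all genes. The higher one, Cdkn1a, the cell-cycle inhibitor p21, was at 19.9996, 18.4, 21.7, 21.2 and 19.9 CPM and then at 49.97, 31.9, 30.3, 35.1 and 37.1 CPM (log2 fold change 0.85, SE 0.11, adjusted p = 0.00051). The lower ones included Sgk1 and Klf9, which were not called in 6 and 8 of the fits with 1 library left out.

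Clock genes changed in both directions. Of 20 tested, 3 were higher and 6 were lower at 6 months, against 4.54% and 3.75% of all genes. Dbp, a clock output factor that binds D-boxes, was at 76.4, 75.2, 70.4, 78.6 and 69.1 CPM at 3 months and at 32.2, 33.5, 39.2, 40.1 and 44.4 CPM at 6 months. The groups lay far apart, with a log2 fold change of −0.97 (SE 0.08, adjusted p = 3.4e-05). Ciart, a repressor within the loop, was at 22.99, 23.6, 25.3, 29.1 and 24.6 CPM and then at 14.2, 12.2, 11.8, 14.7 and 14.2 CPM (log2 fold change −0.91, SE 0.08, adjusted p = 4.5e-05). Tef, a relative of Dbp, fell by 0.40 on the log2 scale. The nuclear receptors Nr1d1 and Nr1d2, which repress Arntl, stood at −0.36 and −0.40, and the repressor Bhlhe41 at −0.39.

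Among the 3 higher genes were activators of the loop. Arntl, which encodes BMAL1, was at 43.5, 41.9, 40.6, 44.6 and 46.1 CPM and then at 66.2, 58.9, 59.5, 62.2 and 61.6 CPM, with no overlap (log2 fold change 0.50, SE 0.05, adjusted p = 7.9e-05). Npas2, a partner of BMAL1, and Nfil3, which opposes Dbp at D-boxes, were higher by 0.76 and 0.60. Per1, Cry1 and Clock stood at −0.02, −0.03 and 0.01 and did not pass. These counts were 3 and 7 without 3-month replicates 2 and 3, 3 and 6 with the 6-month group limited to ID number 7, 3 and 7 with it limited to ID number 8, and 3 and 5 with Y-linked status in the model. The hour of collection was not given in the sources used here, and its part in these values was not tested.

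The Ciart window is shown because it held the E-box, the letters bound by BMAL1 and its partners, 3 times. CACGTG was searched on both strands, and 2349 of 32851 windows held it (7.15%). By gene, 1154 of the 9906 tested genes with a window held it (11.6%). So did 5 of the 18 clock genes with a window (27.8%), namely Ciart, Tef, Bhlhe41, Per1 and Cry1. Of all genes with a window, 29 of 412 called higher (7.04%) and 38 of 373 called lower (10.2%) held the E-box. The D-box, TTANGTAA, was in 763 of all windows (2.32%), in 184 of the 9906 tested genes (1.86%) and in 2 of the 18 clock genes. The Ciart window lies at chr3:95882179-95882478 on the minus strand, and capitals mark the E-box.
Ciart: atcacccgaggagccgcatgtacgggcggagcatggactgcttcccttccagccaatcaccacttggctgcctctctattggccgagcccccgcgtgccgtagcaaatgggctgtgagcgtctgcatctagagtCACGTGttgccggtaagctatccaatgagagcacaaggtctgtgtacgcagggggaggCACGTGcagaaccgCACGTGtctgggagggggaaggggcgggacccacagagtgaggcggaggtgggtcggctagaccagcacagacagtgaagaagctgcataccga

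**Figure D3:**
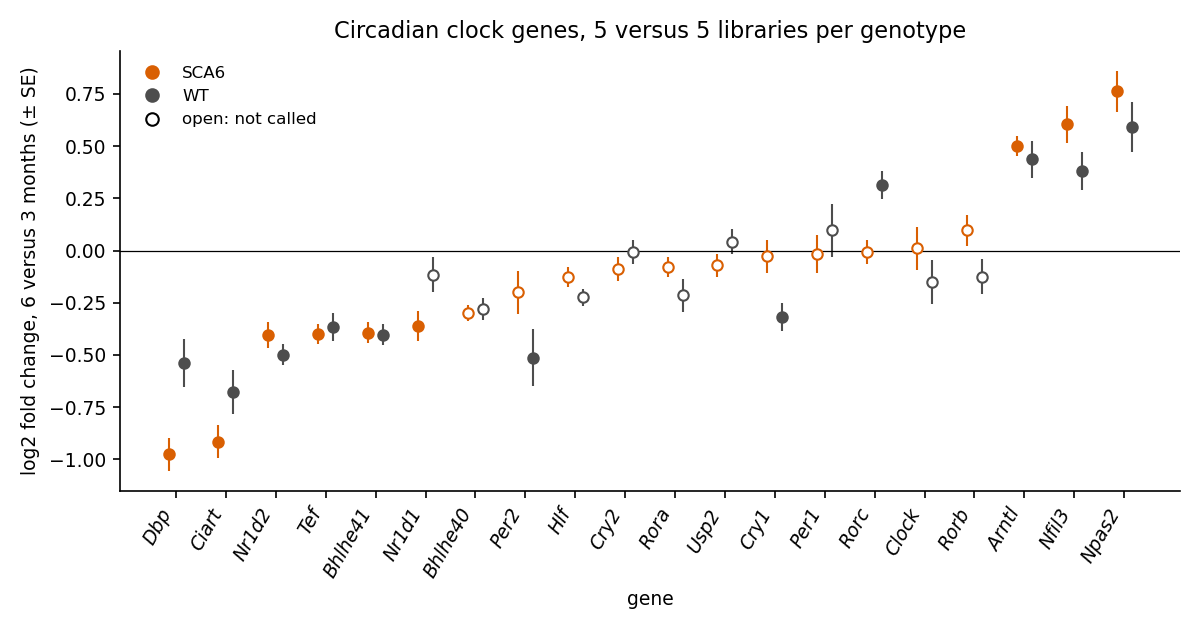
Log2 fold change with SE, 6 over 3 months, of 20 clock genes in SCA6 and WT cerebellum, with open symbols for genes not called. In SCA6 the bars run from −0.97 for Dbp to 0.76 for Npas2, and WT values lie on the same side of 0 for Dbp (−0.54), Ciart (−0.68) and Arntl (0.44).

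Myelin transcripts were lower at 6 months. Of 18 oligodendrocyte genes, 12 were lower and none was higher, with a median log2 fold change of −0.33 against a background of 3.75% called lower. Opalin, a membrane protein of mature oligodendrocytes, was at 18.3, 23.6, 22.1, 25.5 and 22.9 CPM at 3 months and at 5.89, 11.2, 11.9, 13.9 and 14.4 CPM at 6 months (log2 fold change −0.98, SE 0.18, adjusted p = 0.0032). Cldn11, which seals the layers of the sheath, was at 90.8, 91.1, 107, 102 and 89.3 CPM and then at 56.0, 63.4, 66.7, 66.2 and 68.9 CPM (log2 fold change −0.59, SE 0.07, adjusted p = 0.00022). Neither gene overlapped between the ages.

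The myelin glycoprotein Mog fell by 0.54 on the log2 scale, Aspa, which cleaves N-acetylaspartate, by 0.55 and Ugt8a, the galactosylceramide synthase, by 0.42. Mbp, Mag and Cnp were lower by smaller amounts, at −0.31, −0.33 and −0.30. Mobp, at −0.21, and Myrf, the transcription factor of myelination, at −0.03, did not pass. The summed level of the list was 6881 to 8781 CPM at 3 months and 5969 to 6962 CPM at 6 months. In bulk tissue, fewer cells of a type and less RNA per cell cannot be told apart. Of 13 precursor genes, 2 were lower, against 3.75% of all genes tested. These were Enpp6 (−0.52), expressed in newly formed oligodendrocytes, and Vcan (−0.36, lost without 6-month replicate 5), a matrix proteoglycan. The precursor markers Pdgfra (−0.24) and Cspg4 (0.04) did not pass. The 12 lower calls became 9 without 6-month replicate 1, 8 without 3-month replicates 2 and 3, and 7 with Y-linked status in the model. In libraries without Y-linked transcripts the median was −0.13 and edgeR called none.

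Cholesterol genes fell alongside. Of 24, 12 were lower and none was higher, with a median of −0.30, against 3.75% of all genes tested called lower. Insig1, a sterol sensor that restrains the pathway, was at 87.6, 82.6, 103, 91.3 and 88.0 CPM and then at 61.2, 65.7, 62.5, 60.6 and 57.8 CPM (log2 fold change −0.57, SE 0.06, adjusted p = 0.00012). Lss, which closes squalene into a sterol ring, was at 43.999, 46.5, 45.3, 48.4 and 43.9 CPM and then at 35.2, 34.7, 35.015, 33.9 and 31.7 CPM (log2 fold change −0.43, SE 0.05, adjusted p = 0.00019). Both genes were lower in all 6-month libraries than in any 3-month one.

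Along the pathway, Hmgcs1 (−0.44) and Idi1 (−0.52) act before squalene, Fdft1 (−0.37), Sqle (−0.44) and Lss (−0.43) make, oxidise and close it, and Msmo1 (−0.31) and Hsd17b7 (−0.42) act on sterols. Srebf2, the transcription factor that drives them, stood at −0.25 and missed the fold threshold. The count was 10 without 3-month replicates 2 and 3, 14 without 6-month replicate 1, and 4 with Y-linked status in the model. Among libraries without Y-linked transcripts the median was −0.17 and edgeR called none.

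**Figure D4:**
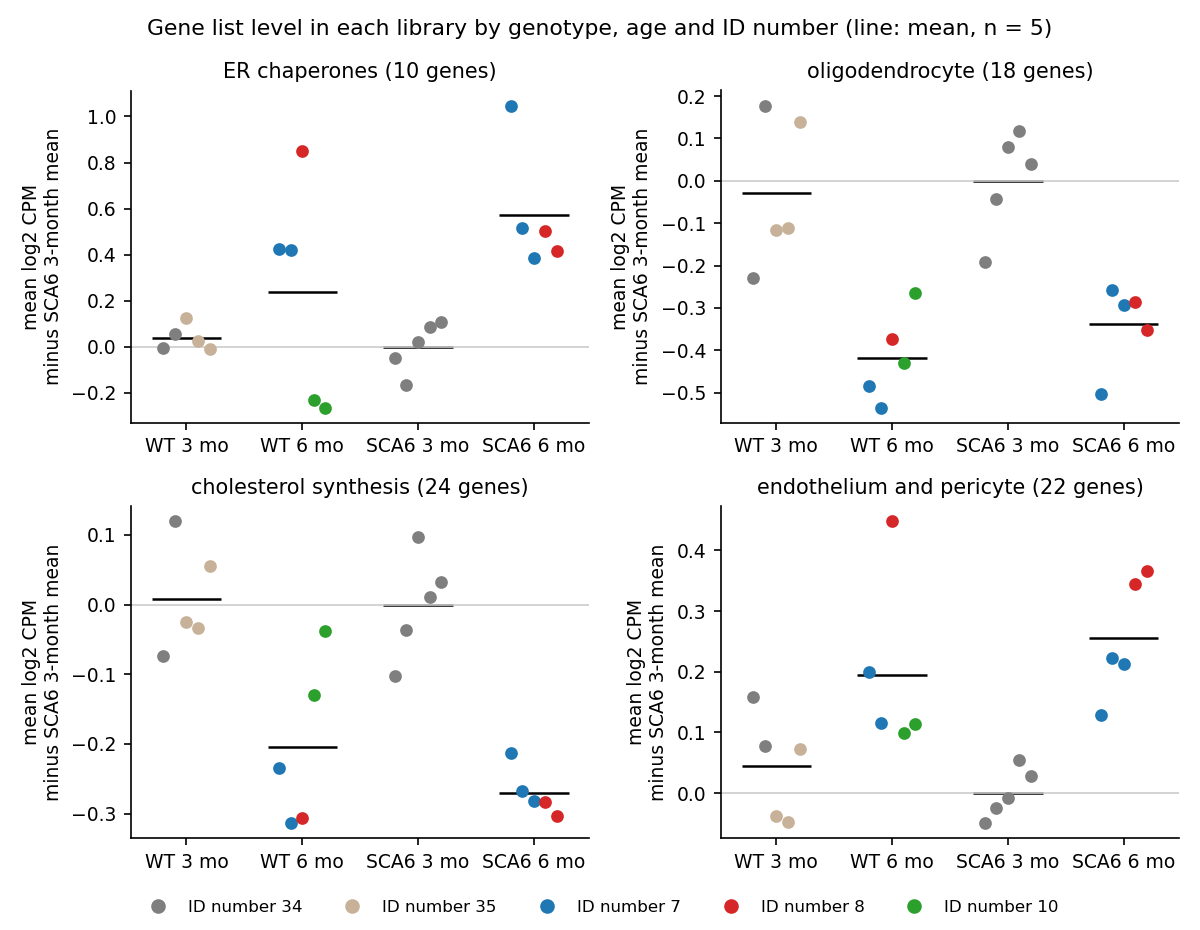
Mean log2 level of 4 gene lists in each library relative to the SCA6 3-month mean, by genotype and age, with points coloured by the ID number of the label. In SCA6 the ER score is 0.38 to 1.05 at 6 months against −0.17 to 0.11 at 3 months, and the WT 6-month libraries of ID number 10 lie at −0.23 and −0.27.

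Vessel transcripts were higher in part. Of 22 endothelial and mural genes, 11 were higher and 2 were lower (median 0.29), against 4.54% and 3.75% of all genes. Flt1, a VEGF receptor of endothelium, was at 42.4, 43.5, 45.0, 47.8 and 50.9 CPM at 3 months and at 64.2, 66.9, 62.6, 65.6 and 66.7 CPM at 6 months (log2 fold change 0.50, SE 0.05, adjusted p = 0.00012). Pecam1, an adhesion molecule of the vessel wall, was at 17.9, 17.7, 17.3, 19.6 and 20.02 CPM and then at 27.4, 24.5, 25.6, 29.3 and 27.05 CPM (log2 fold change 0.52, SE 0.06, adjusted p = 0.00023). Every 6-month library exceeded every 3-month one for both genes.

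Cldn5, the tight junction claudin of the blood-brain barrier, was higher by 0.62 on the log2 scale, and Kdr, Cdh5 and Esam by 0.44, 0.38 and 0.31. The smooth muscle genes Acta2, Tagln and Myh11 were higher by 0.86, 0.63 and 0.61. Pericyte genes Pdgfrb and Rgs5, at 0.09 and 0.05, did not pass. The lower pair were Slco1a4, a barrier anion transporter, at −0.59 and the membrane protein Itm2a at −0.43. Collagen IV of the basement membrane was also higher, with Col4a1 at 9.16, 10.2, 12.0, 10.1 and 10.6 CPM and then at 16.6, 14.7, 15.8, 14.6 and 16.01 CPM (log2 fold change 0.57, adjusted p = 0.00056), within a list of 44 matrix genes with 4 higher and 4 lower, against 4.54% and 3.75% of all genes. Higher vessel calls numbered 7 without 3-month replicates 2 and 3 and 6 with Y-linked status in the model.

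Of the 28 interferon-response and glial ageing genes tested, 25 had a CPM of at least 1 in every library of both ages. Of these 25, 4 were higher and none was lower, with a median of 0.18, and of all genes with such levels 4.35% were called higher (4.54% of all tested). Over the 28, the median was 0.20, and 0.09 without 6-month replicate 3. Irf9, a subunit of the interferon-activated factor ISGF3, was at 16.4, 16.7, 16.5, 16.04 and 18.5 CPM and then at 30.5, 20.3, 23.7, 24.6 and 25.1 CPM (log2 fold change 0.55, SE 0.09, adjusted p = 0.0015). Oasl2 and Isg15 were higher by 0.61 and 0.56. Oas2, a sensor of double-stranded RNA, and Oas1a passed the filter only through their 6-month libraries. Oas2 was low throughout, at 0.755, 0.602, 0.626, 0.485 and 0.580 CPM at 3 months and at 1.73, 1.27, 1.96, 1.498 and 1.68 CPM at 6 months. None of 18 microglial genes was called by edgeR, and Aif1 stood at 0.22 (adjusted p = 0.237).

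Purkinje cell transcripts were not detectably different. None of 28 marker genes was called by edgeR, with a median of −0.02 and a summed level of 16558 to 16949 CPM at 3 months and 16538 to 17220 CPM at 6 months. Pcp2 and Calb1, the defining markers, stood at 0.04 and 0.03 (adjusted p = 0.672 and 0.668), and Itpr1, the ER calcium release channel, at −0.01. Of 31 channel genes tied to ataxia or Purkinje firing, 1 was higher and 1 was lower, against 8.29% called in either direction among all genes. Fgf14, a regulator of sodium channels, was at 137, 109, 93.2, 124 and 112 CPM and then at 161, 139, 154, 198 and 235 CPM (log2 fold change 0.62, SE 0.13, adjusted p = 0.0073). The ages did not overlap, and the call was lost without 3-month replicates 2 and 3, at 0.52 (adjusted p = 0.067). The small-conductance potassium channel Kcnn1 fell by 0.39 on the log2 scale (adjusted p = 0.012), and its call was lost without the same libraries (−0.28, adjusted p = 0.082). Of 15 genes of store-operated calcium entry, Orai1, the plasma membrane pore, was the only one called, at −0.41 (adjusted p = 0.012), and it too was lost without 3-month replicates 2 and 3 (−0.29). With Y-linked status in the model, Fgf14, Kcnn1 and Orai1 all lost their calls.

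Receptor subunits moved singly. Grin2a, an NMDA receptor subunit, was at 99.9, 81.7, 76.3, 89.4 and 85.7 CPM and then at 134, 129, 140, 137 and 132 CPM (log2 fold change 0.63, SE 0.06, adjusted p = 8.5e-05), with no overlap. Grm4, the metabotropic receptor of granule cells, was at 538, 345, 341, 330 and 316 CPM at 3 months and at 572, 471, 522, 564 and 578 CPM at 6 months (log2 fold change 0.53, SE 0.12, adjusted p = 0.012). Replicate 1, the 3-month library without Y-linked transcripts, lay within the 6-month range, and among libraries without them the difference was −0.01. Grm5 was lower at −0.57 and stood at 0.04 in that same subset. Of 18 GABA and glycine receptor genes, Gabrd, the extrasynaptic subunit of granule cells, was higher (0.42), and Glra2 (−0.77), Gabrb2 (−0.47) and Gabrg3 (−0.61) were lower. Among all genes tested, 4.54% were called higher and 3.75% lower. Glra2 was at 4.19, 5.12, 6.13, 5.48 and 4.92 CPM and then at 2.63, 3.98, 3.30, 2.63 and 2.68 CPM (adjusted p = 0.0029). Grin2a and Glra2 kept their calls without 3-month replicates 2 and 3 and with Y-linked status in the model, and Grm4, Grm5, Gabrd, Gabrb2 and Gabrg3 lost theirs under both. With 1 library left out at a time, Grm5 and Gabrg3 were not called in 7 of 10 fits and Gabrb2 in 5 of 10.

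Other cell types showed few calls, beside a background of 4.54% of all genes tested called higher and 3.75% called lower. Of 19 granule cell genes, 2 were higher, Kcnd2 (0.51), which encodes a fast potassium channel, among them, and its call was lost without 3-month replicates 2 and 3. Eomes, the factor that marks unipolar brush cells, was at 24.1, 31.04, 25.7, 27.5 and 36.4 CPM and then at 45.7, 40.7, 43.6, 58.3 and 57.4 CPM (log2 fold change 0.75, SE 0.12, adjusted p = 0.0016), and it was the 1 gene called among the 8 of that cell with a CPM of at least 1 in every library of both ages. Of 21 astrocyte and Bergmann glia genes, the fatty acid binding protein gene Fabp7 was higher (0.42, lost without 3-month replicates 2 and 3 with adjusted p = 0.061) and Hopx (−0.41) and Fgfr3 (−0.39) were lower, while Gfap and Aqp4, at −0.15 and −0.28, were not called. None of 20 choroid plexus genes was called by edgeR, with a summed level of 2836 to 3810 CPM at 3 months and 2918 to 3471 CPM at 6 months. Of 23 neuronal markers of brainstem and midbrain 2 were expressed enough to be tested, and 6 of 17 forebrain markers were, with none called by edgeR. The 74 nuclear genes of oxidative phosphorylation gave no call (median −0.05), and of 78 ribosomal protein genes Rpl10 was higher (0.31) and Rplp1 lower (−0.38), both lost without 3-month replicates 2 and 3. Of 25 early response genes, 3 were higher and 2 were lower, with a median of −0.02. Npas4 (1.13), Klf4 (0.44) and Dusp5 (0.36) were the higher ones and Jund (−0.67) and Jun the lower. Without 3-month replicates 2 and 3, Npas4, Klf4, Dusp5 and Jund lost their calls, as they did with Y-linked status in the model. Jun kept its call under both. Jun was at 30.4, 28.7, 31.5, 20.97 and 26 CPM and then at 15.5, 16.98, 18.8, 15.7 and 16.5 CPM (log2 fold change −0.73, SE 0.10, adjusted p = 0.00062).

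The genes with the largest changes came from no single list. Avil, which encodes the actin-binding protein advillin, was at 2.65, 2.48, 1.86, 2.65 and 2.52 CPM at 3 months and at 12.5, 4.49, 5.34, 8.54 and 8.80 CPM at 6 months (log2 fold change 1.70, SE 0.24, adjusted p = 0.00072). Opn3, the brain opsin encephalopsin, was at 6.89, 6.07, 5.74, 5.01 and 7.37 CPM and then at 12.6, 17.5, 15.3, 18.2 and 16.7 CPM (log2 fold change 1.36, SE 0.11, adjusted p = 3.8e-05). Pde10a, a phosphodiesterase of cAMP and cGMP, was at 104, 91.7, 83.0, 109 and 87.2 CPM and then at 214, 176, 204, 235 and 256 CPM (log2 fold change 1.18, SE 0.10, adjusted p = 3.4e-05). None of the 3 overlapped between ages. Fbxl22, an F-box protein, was higher by 1.45, Stac3, an adaptor of calcium channels in muscle, by 1.26, the glycosyltransferase A3galt2 by 1.09 and Xkr6 by 1.06.

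Gkn3, a gastrokine gene expressed in brain arteries, had the lowest log2 fold change, −1.34, and was at 6.06, 4.92, 3.73, 5.35 and 5.00 CPM and then at 1.22, 1.87, 2.53, 2.24 and 2.09 CPM (SE 0.17, adjusted p = 0.00042). Wnt7b, a Wnt ligand, was at 6.91, 8.003, 8.88, 7.49 and 7.70 CPM and then at 2.81, 4.82, 4.63, 4.81 and 4.79 CPM (log2 fold change −0.84, SE 0.13, adjusted p = 0.0015). Both kept their ages apart. The serotonin receptor gene Htr7 (−0.97), the orphan receptor gene Gpr165 (−0.96), the sodium channel gene Scn3a (−0.85), Camkv (−0.90), which encodes a pseudokinase, and the Delta-like gene Dlk1 (−0.86) were also lower. Each of these 5 lost its call without 3-month replicates 2 and 3, and Gpr165 also without 6-month replicate 4. Camkv shows how much weight those libraries carried, with 3.10, 8.71, 9.09, 3.85 and 3.58 CPM at 3 months against 4.18, 2.81, 2.72, 2.98 and 2.66 CPM at 6 months. Npas4 (1.13), an activity-induced factor, and the unnamed transcript Gm47283 (1.16) passed narrowly, with adjusted p = 0.046 and 0.033, and also lost their calls there, at larger log2 fold changes of 1.24 and 1.23 (adjusted p = 0.12 and 0.086). With Y-linked status in the model they stood at 0.60 and 0.16 (adjusted p = 0.46 and 0.81). With 1 library left out at a time, Dlk1 was not called in 8 of 10 fits, Npas4 in 7, and Camkv and Gm47283 in 6.

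The same ages were compared in WT, which shares no library with SCA6. In WT, 1741 of 13078 genes were called (13.3%), 1073 higher (8.20%) and 668 lower (5.11%). Of the 1069 SCA6 calls that were tested in WT, 500 were called there too (46.8%), which is 29.1% of the 1717 WT calls tested in SCA6, and 497 of the 500 had the same direction. A WT change of the same sign was seen for 997 of the 1069 (93.3%). A call in SCA6 without one in WT does not show a difference, so the difference of the changes was tested as a genotype by age interaction. It called 23 of 13210 genes (0.174%), 22 of them with a smaller or more negative change in SCA6. No member of the ER, clock, oligodendrocyte, cholesterol or vessel lists was among them by this edgeR test. On simulated counts it recovered 41 of 100 genes whose change differed by 0.4 (log2), so smaller differences could be missed.

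Radil, an effector of the GTPase Rap, was at 18.5, 16.5, 19.4, 18.4 and 16.5 CPM in WT of 3 months and at 30.3, 24.1, 26.4, 35.2 and 33.4 CPM in WT of 6 months. In SCA6 it was at 27.9, 21.99, 21.98, 20.1 and 19.8 CPM and then at 21.96, 19.2, 22.5, 20.5 and 22.9 CPM. The WT ages stood apart and the SCA6 ages overlapped, with an interaction of −0.81 on the log2 scale (SE 0.14, adjusted p = 0.0337). Man2c1, a cytosolic mannosidase, Mroh1, Abca2, a lipid transporter of oligodendrocytes, and the mitochondrial myosin Myo19 had interactions of −0.48, −0.46, −0.45 and −0.49. When each of the 20 libraries was left out in turn, these 5 genes were not called in 10 to 13 of the 20 fits. With the WT 6-month libraries of ID number 10 left out, 3 genes were called. Without SCA6 3-month replicates 2 and 3, none was called by edgeR, and none was with Y-linked status in the model.

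For the ER chaperones the WT values differed by the ID number of the label, in fits that were added after the data were seen. With all 5 WT libraries of 6 months none of the 10 genes was called by edgeR, and the median was 0.30. Hspa5 was at 450, 469, 674, 218 and 207 CPM in these libraries, against 311, 348, 374, 314 and 296 CPM in WT of 3 months. The first 3 values, of ID numbers 7 and 8, lay above all 3-month values, and the last pair, of ID number 10, lay below them. With ID numbers 7 and 8 alone, which are the numbers of the SCA6 libraries of that age, 8 of 10 genes were higher in WT at a median of 0.62. With ID number 10 alone, 4 were lower and none was higher, at a median of −0.24. The interaction median of the 10 genes was 0.33 with all WT libraries and 0.05 with ID numbers 7 and 8 only. With Y-linked status in the model it was 0.58, and edgeR called none of the 10. For Hspa5 and Calr the interaction was 0.48 and 0.26 (adjusted p = 0.48 and 0.653).

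The wider UPR and ER folding genes gave 17 higher and 1 lower call in WT with ID numbers 7 and 8, and 0 higher and 8 lower with ID number 10, at medians of 0.11 and −0.12. HSF1 targets gave 6 higher and 0 lower with the former and 1 and 6 with the latter. Vessel genes gave 7 higher and 2 lower and then 1 and 1, at medians of 0.23 and 0.06. Oligodendrocyte genes gave 11 lower calls in WT with ID numbers 7 and 8 and 8 with ID number 10, at medians of −0.44 and −0.35. Clock genes gave 3 higher and 7 lower calls with the former and 2 and 5 with the latter. Cholesterol genes gave 15 and 4 lower calls at medians of −0.38 and −0.10. Over all genes, WT gave 1259 higher and 878 lower calls with ID numbers 7 and 8, and 972 and 389 with ID number 10. These fits also differed in their number of 6-month libraries, so their list counts are not on one scale. Dbp had an interaction of −0.44 (adjusted p = 0.149) and Eomes of 0.75 (adjusted p = 0.188), so neither differed detectably between the genotypes.

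Later ages were not tested against 3 or 6 months, and their means are given for context. Hspa5 in SCA6 was 313 ± 49.2 CPM (SD, n = 5) at 3 months, 537 ± 148 at 6, 270 ± 95.4 at 12 and 286 ± 28.6 at 19 months. Calr followed the same course with 274 ± 21.9, 470 ± 85.6, 261 ± 70.8 and 269 ± 38.5 CPM. At both later ages the means lay near that of 3 months. Grin2a was 86.6 ± 8.89, 135 ± 4.35, 103 ± 10.98 and 84.2 ± 5.60 CPM, and Gkn3 was 5.01 ± 0.846, 1.99 ± 0.490, 2.99 ± 0.735 and 3.46 ± 0.640 CPM. The mean of Cldn11 stayed lower. It was 95.9 ± 7.74 CPM at 3 months and then 64.3 ± 5.01, 63.0 ± 2.49 and 70.6 ± 8.66 CPM.

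**Figure D5:**
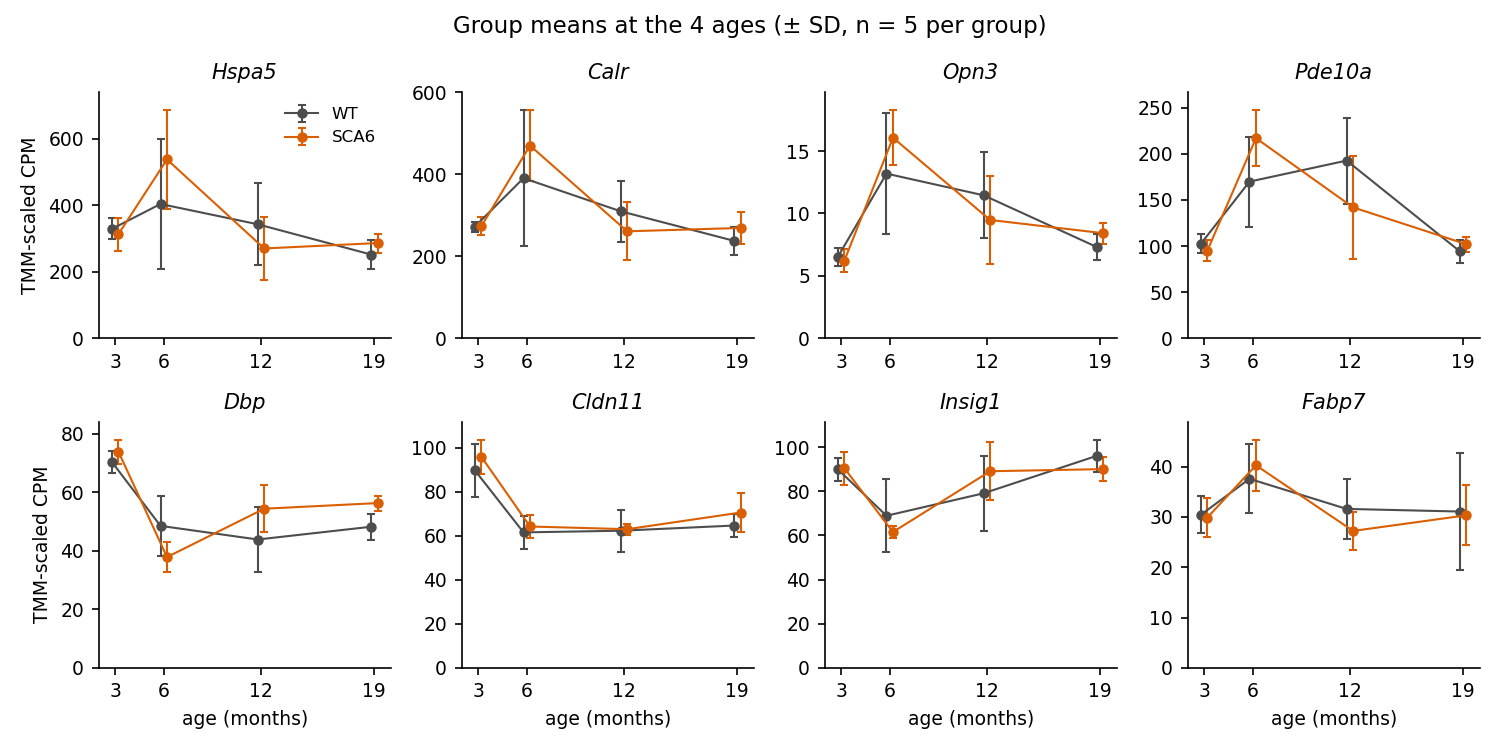
CPM of 8 genes at 3, 6, 12 and 19 months in WT and SCA6 cerebellum, as means with SD of 5 libraries. For Hspa5, Calr, Opn3 and Pde10a the SCA6 mean peaks at 6 months, with Hspa5 at 537 CPM there against 313, 270 and 286 CPM at the other ages.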

How the data were processed

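Poly(A) RNA of mouse cerebellum was sequenced as 150 bp paired-end reads on a NovaSeq instrument. The submitters' processing notes name FastQC, Trimmomatic, STAR and the mm10 build, and the authors deposited raw HTSeq counts per gene. Because versions, annotation and strand setting were not given in the sources used here, values of overlapping, antisense and near-identical genes are uncertain.

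From these counts, edgeR 4.0.16 (R 4.3.3) fitted quasi-likelihood models to the 10 SCA6 libraries with TMM factors and Benjamini-Hochberg adjustment over all genes tested. Calls needed an adjusted p no higher than 0.05 together with a log2 fold change of at least 0.3 in either direction. Genes needed a CPM of 1 in every library of either age. WT was fitted alone, and the interaction on all 20 libraries. Printed CPM values use TMM factors over all 40 libraries. List scores are means of log2 CPM with a prior count of 1, relative to the 3-month SCA6 mean.

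The members and gene lists were chosen with earlier results of these data known. Named genes were the 10 highest and 10 lowest fold changes called at a mean log2 CPM of 1 or above, Y-linked genes aside, up to 4 called members with the smallest adjusted p per list, genes the study names, checks of sex and genotype labels, and the 5 interaction calls of smallest p. Further list members with values in the text were named after their values were seen. Positions came from GENCODE M21 (GRCm38), matched for 89.1% of symbols, and promoters from RefSeq GRCm38.p6. On simulated counts for the 13162 genes of the SCA6 comparison, 72 of 100 genes changed by 0.4 and 100 of 100 changed by 1 (log2) were recovered, with 5 false calls. For WT, 60 of 100 and 98 of 99 were recovered, with 9 false calls. The interaction recovered 41 of 100 and 93 of 100, with 6 false calls.

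Alternatives were DESeq2 1.42.0, limma 3.58.1 voom weights, 1 surrogate variable (sva 3.50.0), other size factors and filters, no fold minimum, a joint fit, a replicate block, Y-linked status, ID number subsets and leaving out libraries. Leaving out 3 libraries together, and the WT and interaction fits by ID number, were added after seeing the data. No 2 libraries of a group were copies (lowest chi-square per degree of freedom 5.30). Counting error is small beside the spread at these totals. Some genes of the lists are not reported here by name.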

Additional observations from a re-analysis of the deposited data

Results flagged for a closer look

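For 212 combinations of a named gene and an SCA6 group of 5 libraries, the gap from the highest or lowest library to its nearest neighbour was compared with the whole range, a test that chance alone passes in about 1 group in 20. Most of the values that stood apart belonged to 6-month replicate 1. In that library the ER genes were far above the other 4, with Hspa5 at 799 CPM (others 451 to 492), Hsp90b1 at 1232 (592 to 742), Hyou1 at 210.0 (116 to 130), Pdia4 at 117 (63.0 to 73.8), Pdia6 at 238 (129 to 148), Dnajb11 at 115 (70.3 to 81.0), Creld2 at 38.4 (21.4 to 24.2) and Sdf2l1 at 19.9 (11.5 to 12.1). Cytosolic chaperones did the same there, with Hspa8 at 2945 CPM (2092 to 2259), Dnaja1 at 445 (266 to 303), Cryab at 172 (118 to 129) and Hspb1 at 9.55 (3.82 to 4.16). A3galt2 at 17.6 CPM (10.2 to 11.2) and Camkv at 4.18 (2.66 to 2.98) were also highest in it, and Wnt7b at 2.81 (4.63 to 4.82) was lowest. Klf4, a transcription factor of early response, was at 9.66 CPM in 6-month replicate 5 (6.08 to 6.76).

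At 3 months, replicate 1, the library without Y-linked transcripts, was highest for Fbxl22 at 4.80 CPM (3.05 to 3.35), Grm4 at 538 (316 to 345), Kdm5c, an X-linked histone demethylase gene, at 114 (80.2 to 87.1) and Radil at 27.9 (19.8 to 21.99). Replicate 3 was low for Avil at 1.86 CPM (2.48 to 2.65) and high for Col4a2 at 12.5 (8.02 to 9.12) and for Nxph1, an interneuron gene, at 27.4 (19.8 to 21.9). Klf4 was at 4.48 CPM in replicate 2 (5.26 to 5.45), Ifi27 at 35.98 in replicate 4 (29.5 to 30.9) and Irf9 at 18.5 in replicate 5 (16.04 to 16.7).

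The change from 3 to 6 months differed between genotypes for 5 named genes by the interaction test of edgeR. The SCA6 change minus the WT change was −0.48 on the log2 scale for Man2c1, −0.46 for Mroh1, −0.81 for Radil, −0.45 for Abca2 and −0.49 for Myo19 (adjusted p = 0.0337, 0.0337, 0.0337, 0.0345 and 0.0345). For each of the 5, WT rose and the SCA6 ages overlapped. When each of the 20 libraries was left out in turn, Man2c1 was not called in 10 fits, Mroh1, Radil and Myo19 in 11 and Abca2 in 13, and none was called with Y-linked status in the model.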

How the results depend on the processing

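The count of 1091 SCA6 calls was between 730 and 1413 under DESeq2, other size factors, filters, a joint fit of all groups, voom weights, a surrogate variable, Y-linked status and libraries with Y-linked transcripts only. It was 2344 with no minimum fold change, 519 without 3-month replicates 2 and 3, 356 without these and 6-month replicate 1, 689 with ID number 7 only, 1934 with ID number 8 only and 7 in libraries without Y-linked transcripts. Leaving out single libraries gave 832 (6-month replicate 4) to 1414 (6-month replicate 2). In WT, no minimum fold change gave 4024 genes and leaving out single libraries 1334 to 2109. The 23 interaction calls were 266 with DESeq2, 6 with RLE size factors, 7 with no filter, 77 in the joint fit, 0 with Y-linked status, 0 without SCA6 3-month replicates 2 and 3, 3 with WT ID numbers 7 and 8 only, and 0 to 415 with single libraries left out. The cause was not tested. Replicate numbers did not pair the samples: same-number libraries correlated at −0.22 to 0.07, none above 0.1. With the replicate number as a block, 997 SCA6 genes were called and 4 interactions.

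Of 92 called named genes, 43 lost their call without 3-month replicates 2 and 3, 36 with Y-linked status, 13 without 6-month replicate 1 and 3 under DESeq2. Log2 fold changes turned sign in libraries without Y-linked transcripts for Htr7 (0.298), Gabrg3 (0.0196), Grm4 (−0.0129) and Grm5 (0.0389). The uncalled Hsp90aa1 ran from −0.0215 without 6-month replicate 1 to 0.267 without 6-month replicate 5, and was −0.194 with ID number 8 only and −0.00604 without 3-month replicates 2 and 3 and 6-month replicate 1. Dnaja1 was −0.000227 with ID number 8 only. In the subsets by Y-linked transcripts 1 age had a single library, which was assumed to vary like the others.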
